A study of Homo sapiens with 33 samples.

Results

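The Notch receptors NOTCH1, NOTCH2 and NOTCH3, the ligands JAG1, JAG2 and DLL1, the target genes HES1, HEY1 and HEY2 and the ubiquitin ligase gene DTX4 were followed in 11 cell lines of human high-grade serous ovarian carcinoma, as 10 of the 29744 genes of an mRNA sequencing table. The genes were selected by symbol, and partly on results of these samples: HEY2 was chosen because it appeared in the resistant line OVCAR4 ResB. DTX4 belongs to a differentiated-tumour signature that the study drew on in the same lines. The study named DTX4 among the signature genes that were often higher in resistant lines. HEY2 within the OVCAR4 family and DTX4 in the sensitive-resistant pairs are therefore described with no test. OVCAR3 and OVCAR4 are established platinum-sensitive lines. Pulses of cisplatin were used to derive 2 resistant lines separately from each, called ResA and ResB; cisplatin is the platinum drug that crosslinks DNA. PEA1 with its resistant partner PEA2, and PEO1 with its resistant partners PEO4 and PEO6, are lines that came from the same patient within each family. Each of the 11 lines, 4 sensitive and 7 resistant, had 3 libraries, the labels name no drug treatment of the sequenced cells, and every resistant group is 1 line. The labels do not say whether the 3 libraries of a line came from separate cultures, so p-values measure the spread between these libraries, which may be technical.

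Notch receptors are single-pass membrane proteins that are cut after a Jagged or Delta ligand on a neighbouring cell binds them. The released intracellular part enters the nucleus, joins the DNA-binding protein RBPJ and a Mastermind coactivator, and switches on genes such as those of the HES and HEY families, which encode transcriptional repressors. In ovarian carcinoma, NOTCH3 is the receptor best known for gains of gene copies, and Jagged ligands are carried by tumour cells themselves.

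The 33 libraries held between 18058985 and 43394009 estimated counts each. The 8 epithelial and Müllerian markers fixed for the check (PAX8, WT1, MUC16, EPCAM, KRT7, KRT8, KRT18 and CDH1) summed to between 405 and 7393 TPM, a transcript level corrected for gene length and scaled to the same total in each library. The lowest sums were in PEA1, at 405 to 447 TPM, where EPCAM averaged 14 TPM and MUC16 was below 1 TPM, against 3642 to 3875 TPM in PEA2. PEA1 also had the highest sum of the 6 fibroblast markers, 69.6 to 116 TPM, against 0.675 to 1.17 TPM in PEA2. Most of the PEA1 sum was COL1A1, and 4 of the 6 markers stayed under 1 TPM in every PEA1 library. The part of these differences between PEA1 and PEA2 in the results for the pair was not tested. Of the 5 endothelial and the 5 leukocyte markers, sums reached at most 14.7 and 57.7 TPM. In bulk samples, fewer cells that carry a transcript and less of it per cell cannot be told apart.

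Each of the 7 sensitive-resistant pairs had at least 1 of these genes called, from a single ligand in OVCAR4 ResA or a single target in PEA2 to 6 genes in OVCAR3 ResA. A gene was called when the adjusted p of DESeq2, a count model fitted here to the 6 libraries of each pair, was under 0.05. Counts, and shares of all genes, are given of the genes that had an adjusted p. In OVCAR3 ResA against OVCAR3, 6 of 9 genes were called, NOTCH2 and JAG2 higher and NOTCH1, NOTCH3, JAG1 and HEY1 lower, where 44.9% of all genes were called. In OVCAR3 ResB, 2 of 9 were called (JAG2 higher, HEY1 lower) against 7.67% of all genes. In OVCAR4 ResA, 1 of 8 was called (DLL1 higher) against 11.9% of all genes. OVCAR4 ResB had 5 of 8 called, all lower (NOTCH3, JAG1, JAG2, HES1 and HEY1), where 17.9% of all genes were called. In PEA2 against PEA1, 1 of 8 was called (HEY1 lower) against 47.0% of all genes. PEO4 against PEO1 had 5 of 8 called (NOTCH3, JAG2, HES1 and HEY2 higher, JAG1 lower) against 33.3%, and PEO6 against PEO1 had 2 of 9 (HEY2 higher, NOTCH1 lower) against 41.4%. Over the 7 pairs this came to 22 calls in 59 comparisons with an adjusted p, 9 higher and 13 lower, where 29.8% of all genes were called over the same pairs. HEY2 in the PEA pair and DLL1 in PEO4 against PEO1 had none. Pairs of one family share the libraries of their sensitive line, so they are not independent of each other. Of the 22 calls, 12 remained when each replicate was left out in turn, and none of these was in OVCAR3 ResB, OVCAR4 ResA or PEA2.

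The resistant lines of one origin were also compared with each other. In OVCAR3 ResB against OVCAR3 ResA, 2 of 10 genes were called (HEY1 higher, JAG2 lower), where 13.5% of all genes were. OVCAR4 ResB against OVCAR4 ResA had 7 of 9 called, DTX4 higher and NOTCH3, JAG1, JAG2, DLL1, HES1 and HEY1 lower, against 32.8% of all genes. In PEO6 against PEO4, 5 of 8 were called (JAG1 and HEY2 higher, NOTCH1, NOTCH3 and HES1 lower) against 18.2% of all genes. Of these 14 calls, 8 remained when each replicate was left out in turn.

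**Figure D1:**
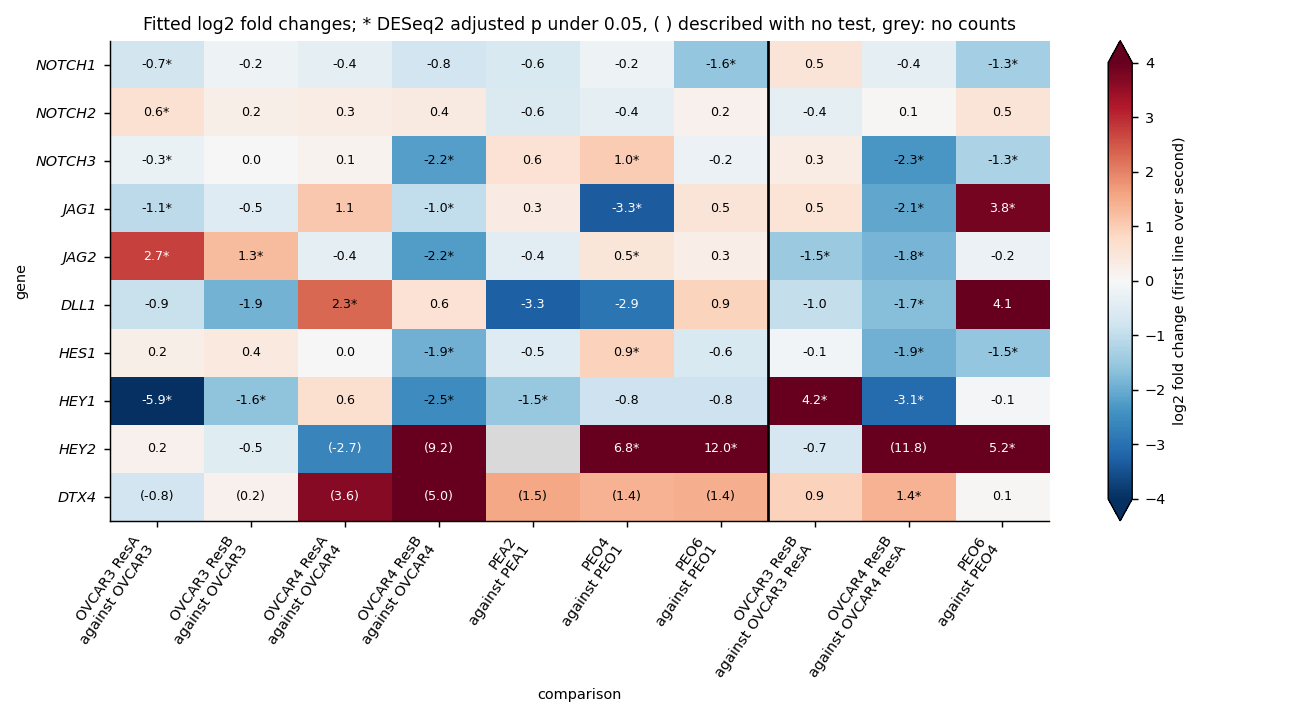
Heat map of fitted log2 fold changes, with the 10 genes as rows and the 10 comparisons as columns (the 3 right of the line compare resistant lines with each other). Red is higher and blue lower in the first-named line; asterisks mark DESeq2 adjusted p under 0.05, parentheses mark values described with no test, and colours stop at 4 although HEY2 reached 11.99 in PEO6. OVCAR4 ResB shows blue for NOTCH3, JAG1, JAG2, HES1 and HEY1 beside red for HEY2, while NOTCH2 is marked in OVCAR3 ResA alone.

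NOTCH1 (chr9:136494433-136546048 in RefSeq GRCh38.p14), the receptor best known from T-cell leukaemia and squamous epithelium, was fitted lower in the resistant line of all 7 pairs but called in 2. The direction was not uniform in mean TPM. OVCAR4 ResA (3.26 against 3.08 in OVCAR4) and OVCAR3 ResB (6.61 against 6.35 in OVCAR3) were higher, with overlapping libraries. PEO1 libraries were at 3.26, 1.23 and 3.06 TPM and PEO6 libraries at 0.487, 0.870 and 1.16 TPM. The groups did not overlap, and the log2 fold change was -1.56 (SE 0.36, DESeq2 adjusted p = 7.28e-05). PEO4, at 2.6, 1.95 and 1.44 TPM, overlapped PEO1, and PEO6 was lower than PEO4 by a log2 fold change of -1.35 (SE 0.40, DESeq2 adjusted p = 0.00756), a call lost without replicate 1 (adjusted p = 0.379) or without replicate 2 (adjusted p = 0.222). OVCAR3 libraries held 5.94, 6.38 and 6.74 TPM and OVCAR3 ResA libraries 3.46, 4.55 and 4.80 TPM. These groups did not overlap either, with a log2 fold change of -0.73 (SE 0.13, DESeq2 adjusted p = 3.46e-07). In the other 5 pairs the fitted log2 fold changes ran from -0.78 to -0.19 with DESeq2 adjusted p between 0.0628 and 0.888. Of these, OVCAR4 ResB passed without replicate 1 (-1.13, adjusted p = 0.000494), with all 33 libraries in one fit (adjusted p = 0.0335) and with the length offset described later (adjusted p = 0.0375), and PEA2 without the block (adjusted p = 0.0189) and with that offset (adjusted p = 0.0353). OVCAR3 ResB replicate 3, at 10.8 TPM, was the highest of all 33 libraries, and the other 2 libraries of that line were at 3.84 and 5.20 TPM.

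NOTCH2 (chr1:119911553-120069662) had the highest mean TPM of the 3 receptors in each of the 11 lines, and its lines could not be ordered. Its line means ran from 26.2 TPM in OVCAR4 to 57.8 TPM in PEO6, and in the order of the 11 means all 10 neighbouring lines had overlapping libraries. OVCAR3 libraries were at 43.2, 24.6 and 21.4 TPM and OVCAR3 ResA libraries at 79.1, 44.3 and 32.2 TPM. The ranges overlapped, but within each replicate number ResA was higher, and the fit with replicate as a block gave a log2 fold change of 0.62 (SE 0.10, DESeq2 adjusted p = 2.49e-08). Without the block the adjusted p was 0.135. NOTCH2 has near-identical partial copies on the same chromosome, annotated here as NOTCH2NL, whose counts came to between 1.79% and 8.05% of the sum of both genes, so its values are uncertain by the reads that the counting could have split between them.

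NOTCH3 (chr19:15159038-15200995 in RefSeq GRCh38.p14), a receptor of smooth muscle and of ovarian carcinoma cells, separated the OVCAR4 lines. OVCAR4 libraries were at 21.1, 20.9 and 20.03 TPM, OVCAR4 ResA at 23.1, 38.8 and 39.6 TPM and OVCAR4 ResB at 5.24, 7.76 and 7.36 TPM. Every ResB library lay below every library of the other 2 lines, with log2 fold changes of -2.19 against OVCAR4 (SE 0.30, DESeq2 adjusted p = 1.88e-11) and -2.33 against OVCAR4 ResA (SE 0.13, DESeq2 adjusted p = 1.09e-73). OVCAR4 ResA against OVCAR4 gave 0.15 (SE 0.28, DESeq2 adjusted p = 0.805). In the PEO family the middle line stood out, with PEO1 at 5.25, 3.10 and 5.20 TPM, PEO4 at 11.3, 9.70 and 5.76 TPM and PEO6 at 2.73, 3.64 and 5.40 TPM. PEO4 was above PEO1 in all libraries, by a log2 fold change of 1.01 (SE 0.23, DESeq2 adjusted p = 6.25e-05). PEO6 was lower than PEO4 by a log2 fold change of -1.25 (SE 0.35, DESeq2 adjusted p = 0.00375), a call lost without replicate 1 (adjusted p = 0.232) or without replicate 2 (adjusted p = 0.286). The call in OVCAR3 ResA was small, at -0.26 (SE 0.11, DESeq2 adjusted p = 0.0381), and was lost when any 1 replicate was left out, with adjusted p between 0.132 and 0.274.

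**Figure D2:**
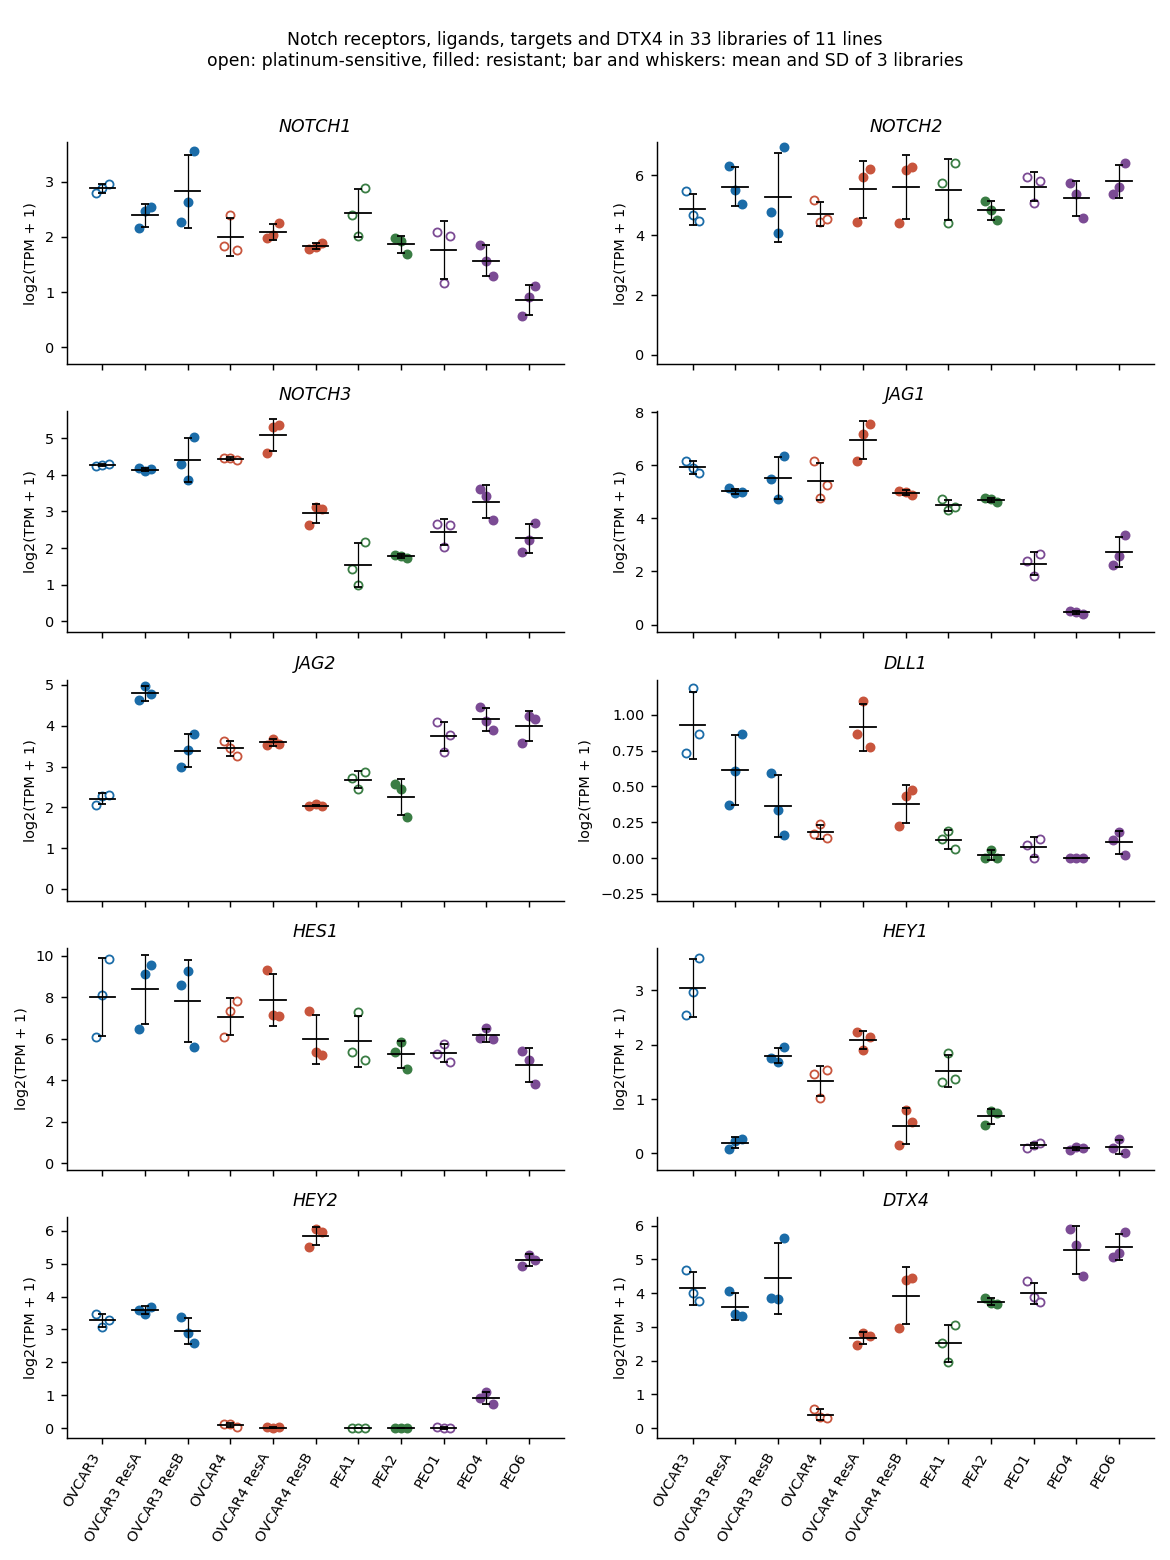
Level of each of the 10 genes, as log2(TPM + 1) on the vertical axis, in the 3 libraries of each of the 11 lines along the horizontal axis. Open circles are sensitive and filled circles resistant lines, coloured by family, with the mean and SD of the 3 libraries as bar and whiskers. HEY2 is near 0 in 5 lines and high in OVCAR4 ResB and PEO6, JAG1 dips in PEO4, and HES1 libraries of a single line spread over several log2 units.

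The ligand JAG1 (chr20:10637684-10673999), which binds Notch receptors on neighbouring cells, ran from 0.320 TPM in a PEO4 library to 189 TPM in an OVCAR4 ResA library. PEO1 libraries were at 4.25, 2.51 and 5.35 TPM, PEO4 libraries at 0.419, 0.377 and 0.320 TPM and PEO6 libraries at 3.74, 4.92 and 9.25 TPM. PEO4 was below all libraries of both relatives, with log2 fold changes of -3.34 for PEO4 against PEO1 (SE 0.30, DESeq2 adjusted p = 1.58e-27) and 3.84 for PEO6 against PEO4 (SE 0.38, DESeq2 adjusted p = 1.84e-21). PEO6 against PEO1 gave 0.51 (SE 0.27, DESeq2 adjusted p = 0.118). OVCAR3 held 71.0, 58.6 and 50.9 TPM and OVCAR3 ResA 34.0, 30.2 and 30.7 TPM. The groups were apart, and the log2 fold change was -1.06 (SE 0.11, DESeq2 adjusted p = 7.84e-21). The OVCAR4 family went both ways, with OVCAR4 at 70.6, 26.3 and 37.6 TPM, OVCAR4 ResA at 71.3, 143 and 189 TPM and OVCAR4 ResB at 31.6, 31.3 and 28.3 TPM. ResB overlapped OVCAR4, and its log2 fold change of -0.9997 (SE 0.31, DESeq2 adjusted p = 0.0114) was lost without replicate 2 (adjusted p = 0.150) or replicate 3 (adjusted p = 0.534), and by the quasi-likelihood test of edgeR (adjusted p = 0.0879). ResB lay wholly below ResA, at -2.07 (SE 0.48, DESeq2 adjusted p = 0.000128), which missed the threshold without replicate 2 (adjusted p = 0.0802). For ResA against OVCAR4 the value was 1.09 (SE 0.41, DESeq2 adjusted p = 0.0592), which passed without replicate 1 (1.63, adjusted p = 5.27e-19), without the replicate block (1.08, adjusted p = 0.0154) and with all 33 libraries in one fit (1.11, adjusted p = 0.000561), in a comparison where same-numbered libraries did not move together.

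JAG2 (chr14:105140995-105168776 in RefSeq GRCh38.p14), the second Jagged ligand, was called higher in both resistant OVCAR3 lines and lower in OVCAR4 ResB, and was not called in OVCAR4 ResA. OVCAR3 libraries were at 3.15, 3.85 and 3.91 TPM, OVCAR3 ResA at 23.7, 30.4 and 26.4 TPM and OVCAR3 ResB at 6.89, 9.53 and 12.9 TPM. The 3 lines did not overlap, with ResA highest and OVCAR3 lowest. The log2 fold change was 2.74 in ResA (SE 0.12, DESeq2 adjusted p = 8.36e-108) and 1.28 in ResB (SE 0.34, DESeq2 adjusted p = 0.0034), the second lost without replicate 1 (adjusted p = 0.101) or replicate 2 (adjusted p = 0.382). ResB against ResA gave -1.47 (SE 0.33, DESeq2 adjusted p = 0.000175), with adjusted p = 0.0506 without replicate 2. OVCAR4 held 11.4, 9.93 and 8.65 TPM, OVCAR4 ResA 10.6, 11.8 and 10.8 TPM and OVCAR4 ResB 3.07, 3.20 and 3.09 TPM. ResB again stood alone, at -2.22 against OVCAR4 (SE 0.33, DESeq2 adjusted p = 1e-09) and -1.85 against ResA (SE 0.15, DESeq2 adjusted p = 3.52e-33). In PEO4 against PEO1 the libraries overlapped, and the log2 fold change of 0.49 (SE 0.18, DESeq2 adjusted p = 0.0198) was lost without replicate 1 (adjusted p = 0.252) or replicate 2 (adjusted p = 0.267).

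DLL1 (chr6:170282206-170291078 in RefSeq GRCh38.p14), a Delta ligand, was close to the limit of detection. It reached 1 TPM in 2 of 33 libraries, at most 1.28 TPM, and had no count in any PEO4 library against 8 counts over the PEO1 libraries. OVCAR4 libraries held 8, 7 and 5 counts, OVCAR4 ResA libraries 44, 55 and 37 and OVCAR4 ResB libraries 6, 19 and 21. ResA was above both relatives in all libraries. Its log2 fold change over OVCAR4 was 2.31 (SE 0.81, DESeq2 adjusted p = 0.0399), and that of ResB against ResA was -1.69 (SE 0.60, DESeq2 adjusted p = 0.0188). Both calls were lost when any 1 replicate was left out, with adjusted p from 0.0740 to 0.655 for the first and from 0.111 to 0.382 for the second.

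The direct nuclear targets of Notch carry sites for RBPJ, whose core is TGGGAA. The motif TGGGAA, read on both strands as TGGGAA or TTCCCA, was searched in RefSeq promoter windows of build GRCh38.p14, each from 250 bases before to 50 bases after a transcription start. It occurred in 24.0% of all 35116 windows, and in the windows of 5 of the 9 HES, HEY and NRARP genes found in the table, out of 10 looked for. Of the members, 8 were in the table, and HEY1 and DLL1 were not. Stretches of the windows of the members HES1 and HEY2, the only ones in the table with a match, and of the further targets HES4 and HEYL are shown with the motif in capitals, 5′ to 3′ along the gene's own strand.
HES1, chr3:194136048-194136107, plus strand: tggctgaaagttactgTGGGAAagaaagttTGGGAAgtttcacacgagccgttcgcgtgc
HEY2, chr6:125749587-125749646, plus strand: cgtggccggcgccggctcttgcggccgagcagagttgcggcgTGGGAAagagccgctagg
HES4, chr1:1000138-1000197, minus strand: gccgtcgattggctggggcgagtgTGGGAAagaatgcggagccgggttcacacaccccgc
HEYL, chr1:39639734-39639833, minus strand: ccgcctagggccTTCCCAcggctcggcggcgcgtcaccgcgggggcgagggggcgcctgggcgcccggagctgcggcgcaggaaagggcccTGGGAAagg
The HES1 stretch has 2 matches close together upstream of the start, the HEY2 match shown spans the start while a second one in its window, at position -213, lies outside the stretch, and the 2 HEYL matches face opposite ways. A match is a description of the letters in the window and not a measured binding site.

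HES1 (chr3:194136148-194138732 in RefSeq GRCh38.p14), a repressor that many cell types switch on through Notch, had the highest mean TPM of the 3 targets in each line except PEO6, where HEY2 was higher, and its libraries of one line differed widely. OVCAR3 libraries were at 66.5, 279 and 925 TPM, OVCAR3 ResA at 88.0, 555 and 753 TPM and OVCAR3 ResB at 383, 615 and 47.0 TPM. The 3 lines overlapped fully. ResA against OVCAR3 gave a log2 fold change of 0.22 (SE 0.34, DESeq2 adjusted p = 0.633) and ResB 0.40 (SE 1.54, DESeq2 adjusted p = 0.958). The ResB value rested on replicate 3, without which it was 1.96 (DESeq2 adjusted p = 5.45e-09), and ResB against ResA, at -0.11 (SE 1.42, DESeq2 adjusted p = 0.977) with all libraries, was then 1.40 (DESeq2 adjusted p = 0.000709). For ResA, 0.55 without replicate 3 also passed (DESeq2 adjusted p = 0.00405).

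In the OVCAR4 family, HES1 was at 66.8, 159 and 222 TPM in OVCAR4, 624, 141 and 138 TPM in ResA and 161, 39.7 and 36.8 TPM in ResB. ResB overlapped OVCAR4 through its first library. Its log2 fold change over OVCAR4 was -1.93 (SE 0.69, DESeq2 adjusted p = 0.0346), lost without replicate 2 (adjusted p = 0.647), without replicate 3 (adjusted p = 0.842) and without the block (adjusted p = 0.301). ResA against OVCAR4 gave 0.02 (SE 0.67, DESeq2 adjusted p = 0.986), which became -1.20 without replicate 1 (DESeq2 adjusted p = 1.6e-08). Between the resistant lines, ResB was lower within each replicate number, at -1.93 (SE 0.09, DESeq2 adjusted p = 1.84e-102). The replicate numbers moved together in that comparison, and without the block the adjusted p was 0.172. PEO1 held 37.5, 52.4 and 28.4 TPM, PEO4 63.7, 90.5 and 61.8 TPM and PEO6 41.8, 30.2 and 13.0 TPM. PEO4 lay above both relatives, by a log2 fold change of 0.92 over PEO1 (SE 0.20, DESeq2 adjusted p = 3.92e-05), and PEO6 against PEO4 gave -1.53 (SE 0.39, DESeq2 adjusted p = 0.00129), lost without replicate 2 (adjusted p = 0.138). With all 33 libraries in one fit, which share 1 estimate of the spread, no HES1 call remained, with adjusted p = 0.611 for PEO4 and 0.312 for OVCAR4 ResB against their sensitive lines.

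HEY1, a repressor of the HEY family, was called lower in 4 of 7 pairs and higher in none, and no other member was called lower as often. OVCAR3 libraries were at 4.82, 6.87 and 11.1 TPM, OVCAR3 ResA at 0.0542, 0.175 and 0.202 TPM (2, 6 and 8 counts) and OVCAR3 ResB at 2.38, 2.21 and 2.86 TPM. The 3 lines were apart from each other. The log2 fold change was -5.86 in ResA (SE 0.45, DESeq2 adjusted p = 3.87e-37) and -1.62 in ResB (SE 0.44, DESeq2 adjusted p = 0.00541), the latter lost without replicate 2 (adjusted p = 0.202) or replicate 3 (adjusted p = 0.0684). ResB was higher than ResA by 4.23 (SE 0.72, DESeq2 adjusted p = 1.95e-07). OVCAR4 was at 1.74, 1.02 and 1.88 TPM, ResA at 3.68, 2.73 and 3.42 TPM and ResB at 0.107, 0.732 and 0.486 TPM. Again the 3 lines did not overlap, with ResB lowest. ResB gave -2.52 against OVCAR4 (SE 0.73, DESeq2 adjusted p = 0.0056), lost without replicate 3 (adjusted p = 0.333), and -3.07 against ResA (SE 0.58, DESeq2 adjusted p = 1.65e-06). PEA1 held 1.49, 2.6 and 1.58 TPM and PEA2 0.439, 0.717 and 0.669 TPM. All PEA2 libraries were lower, with a log2 fold change of -1.51 (SE 0.52, DESeq2 adjusted p = 0.0103) that was lost without replicate 1 (adjusted p = 0.274) or replicate 2 (adjusted p = 0.342). In the PEO lines no library held more than 8 counts, and no PEO pair was called.

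HEY2 (chr6:125749632-125761269 in RefSeq GRCh38.p14), a close relative of HEY1 known from heart and vessel development, held at most 9 counts over the libraries of 5 lines and was high in 2 resistant ones. OVCAR4 ResB, the line it was chosen for, had 1507, 2832 and 2827 counts, against 5, 3 and 1 in OVCAR4 and 1, 0 and 1 in OVCAR4 ResA. As a description, the ratio of depth-scaled counts was 577 over OVCAR4 (95% counting interval 304 to 1262) and 3440 over OVCAR4 ResA (952 to 28408). In TPM, ResB was at 44.7, 64.6 and 61.3. Intervals of this kind cover counting error only.

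HEY2 was also present in the resistant PEO lines, which the selection had not used, high in PEO6 and low in PEO4. PEO6 libraries held 1524, 1823 and 1599 counts (29.2, 37.6 and 33.6 TPM), PEO4 libraries 31, 54 and 26 counts (0.888, 1.13 and 0.674 TPM), and PEO1 libraries 1, 0 and 0 counts. The 3 lines were apart, in the order PEO6, PEO4, PEO1. PEO6 was higher than PEO4 by a log2 fold change of 5.19 (SE 0.33, DESeq2 adjusted p = 1.12e-51). Over PEO1 the depth-scaled ratio was 4463 for PEO6 (counting interval 801 to 176326, DESeq2 adjusted p = 1.12e-21) and 123 for PEO4 (21.6 to 4886, DESeq2 adjusted p = 4.4e-06). The PEO4 call was lost without replicate 1, the replicate with the single PEO1 count (adjusted p = 0.176). In the OVCAR3 family HEY2 was at 10.2, 7.48 and 8.66 TPM in OVCAR3, 11.1, 9.98 and 11.9 TPM in ResA and 9.39, 6.43 and 4.99 TPM in ResB. These lines overlapped, with log2 fold changes of 0.18 (SE 0.16, DESeq2 adjusted p = 0.391) in ResA and -0.48 (SE 0.41, DESeq2 adjusted p = 0.670) in ResB. Both PEA lines had no count in any library. The high libraries of OVCAR4 ResB were thus lower than OVCAR4 in HEY1 and higher in HEY2, while PEO6 was high in HEY2 with HEY1 at 11 counts over its 3 libraries.

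DTX4 (chr11:59171430-59208588 in RefSeq GRCh38.p14), which encodes a Deltex ubiquitin ligase that acts on Notch, is described in the sensitive-resistant pairs with no test. The study had already named it as often higher in resistant lines, so higher values in these pairs are part of its selection. OVCAR4 libraries were at 0.492, 0.242 and 0.233 TPM, OVCAR4 ResA at 4.51, 6.01 and 5.59 TPM and OVCAR4 ResB at 6.79, 19.9 and 20.7 TPM. All resistant libraries were above OVCAR4, with fitted log2 fold changes of 3.63 and 5.02. PEA1 held 4.80, 2.89 and 7.31 TPM against 13.5, 11.97 and 11.8 TPM in PEA2, and the fitted value was 1.53. PEO1 was at 19.4, 13.8 and 12.4 TPM, PEO4 at 58.3, 42.3 and 21.7 TPM and PEO6 at 32.9, 35.6 and 55.3 TPM, with fitted values of 1.39 and 1.45. In the OVCAR3 family the resistant libraries overlapped OVCAR3, at -0.75 for ResA and 0.16 for ResB. Between resistant lines, which that statement of the study did not compare, DTX4 was higher in OVCAR4 ResB than in ResA by 1.40 (SE 0.23, DESeq2 adjusted p = 1.25e-08). The other 2 such comparisons gave 0.91 (SE 0.41, DESeq2 adjusted p = 0.131) in OVCAR3 and 0.05 (SE 0.35, DESeq2 adjusted p = 0.949) in PEO.

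The resistant-line effect was compared between families for 8 members (all but DTX4 and HEY2). The effect was the mean of the resistant lines minus the sensitive line of a family, on the log2 scale, from 1 DESeq2 fit of all 33 libraries. JAG2 differed in each of the 6 family differences, although OVCAR4 minus PEA (adjusted p = 0.286) and PEA minus PEO (adjusted p = 0.224) were lost without replicate 2, and the latter without replicate 3 (adjusted p = 0.367). The mean effect on JAG2 was 1.996 (SE 0.20) in the resistant OVCAR3 lines and -1.27 (SE 0.20) in the resistant OVCAR4 lines, a difference of 3.27 (SE 0.28, DESeq2 adjusted p = 4.44e-29). HEY1 was lower in the resistant OVCAR3 lines by more than in any other family, at -3.78 (SE 0.43), with differences of -2.90 from OVCAR4 (SE 0.59, DESeq2 adjusted p = 1.73e-05), -2.22 from PEA (SE 0.64, DESeq2 adjusted p = 0.0022) and -3.23 from PEO (SE 0.80, DESeq2 adjusted p = 0.000362). The PEA difference missed the threshold without replicate 3 (adjusted p = 0.0970) and the PEO difference, whose PEO side rests on 6 to 12 counts per line, without replicate 2 (adjusted p = 0.0565). NOTCH3 was lower in OVCAR4, at -1.01 (SE 0.21), than in PEA and PEO by -1.47 (SE 0.33, DESeq2 adjusted p = 5.19e-05) and -1.41 (SE 0.30, DESeq2 adjusted p = 3.11e-05). For both NOTCH3 and JAG2, the mean of the 2 OVCAR4 resistant lines joins a fall in ResB to no call in ResA. The HEY1 mean in OVCAR3 joins unlike falls, from 7.61 TPM in OVCAR3 to 0.144 TPM in ResA and 2.48 TPM in ResB. In the fits of single pairs, HEY1 fell less in OVCAR3 ResB than in OVCAR4 ResB. The HEY1 mean in OVCAR4 joins a higher level in ResA to a fall in ResB.

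Members called per family difference were 5 of 8 for OVCAR3 minus OVCAR4, where 22.6% of all genes were called, 3 for OVCAR3 minus PEA (37.0%), 2 for OVCAR3 minus PEO (32.1%), 3 for OVCAR4 minus PEA (41.4%), 4 for OVCAR4 minus PEO (34.9%) and 2 for PEA minus PEO (43.7%). With the line as the unit, by a DESeq2 fit of counts summed per line with family as a covariate, 0 of 8 members were called and 0 had an unadjusted p under 0.05, against 0.286% of all genes called. Over all genes, 1424 had an unadjusted p under 0.05, beside 23782 genes with an adjusted p. With so few genes passing, 0 of 8 is near the share of all genes. The quasi-likelihood test of edgeR also called 0 of the 8 members. The closest were NOTCH1, at a log2 difference of -0.56 (SE 0.32, unadjusted p = 0.0808, DESeq2 adjusted p = 0.948), and HEY1, at -1.31 (SE 0.78, unadjusted p = 0.0926, DESeq2 adjusted p = 0.976).

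**Figure D3:**
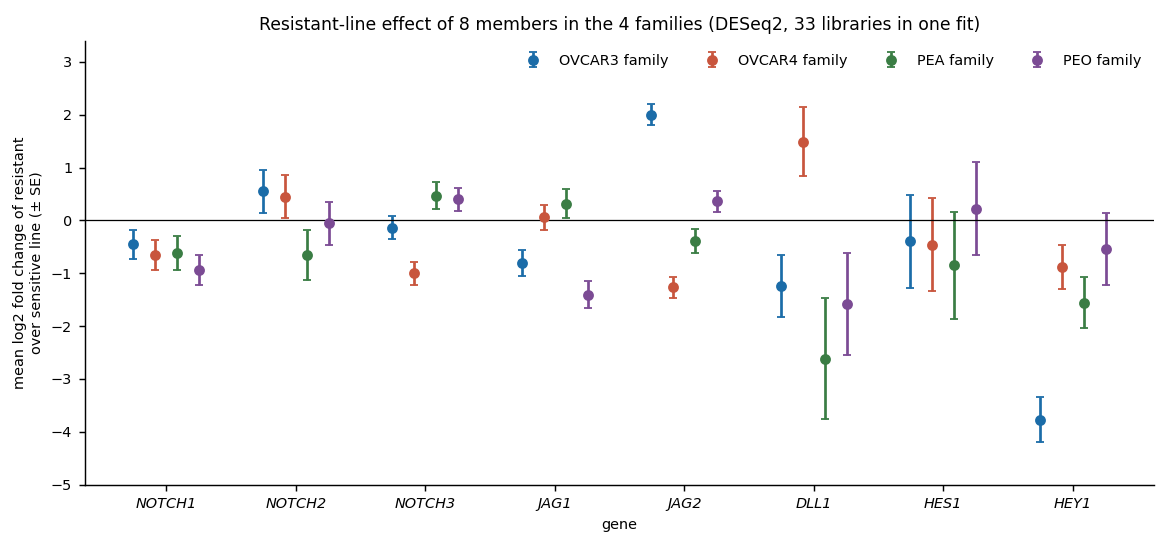
Mean log2 fold change of the resistant lines over the sensitive line (vertical axis, point with SE) for 8 members along the horizontal axis, by family in colour, from 1 DESeq2 fit of the 33 libraries. JAG2 is at 1.996 in OVCAR3 and -1.27 in OVCAR4, HEY1 is at -3.78 in OVCAR3, NOTCH1 is below 0 in all 4 families, and HES1 has error bars that cross 0 in each.

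Libraries of one line differed in HES1 and NOTCH2 in opposite directions. The pooled SD of HES1 within lines was 1.43 on the log2 scale, larger than that of 98.7% of the 14721 genes with a mean of at least 20 counts, and that of NOTCH2 was 0.63. Over the 33 libraries, the log2 deviations of the 2 genes from their line means had r = -0.88. They went with a property of the whole library, the slope of all genes' deviations on gene length, which ran from -0.19 to 0.23 per doubling of length. The correlation with that slope was 0.97 for NOTCH2, whose effective length is 4.01 times that of the median gene, -0.84 for HES1, at 0.49 times, 0.77 for DTX4 and 0.65 for NOTCH3. The share of counts on mitochondrial rRNA, from 1.12% to 14.8%, moved with it, at r = 0.82 for HES1 and -0.82 for NOTCH2. OVCAR3 ResB replicate 3 was the library with the highest slope and the lowest share, with a slope of 0.23 and a share of 1.12%. These correlations are descriptions over libraries that share lines, and the part of these properties in the results was not tested. With an offset that removes the length trend, chosen after the data were seen, 21 of the 22 pair calls remained, and the one lost was HES1 in OVCAR4 ResB (adjusted p = 0.0938).

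**Figure D4:**
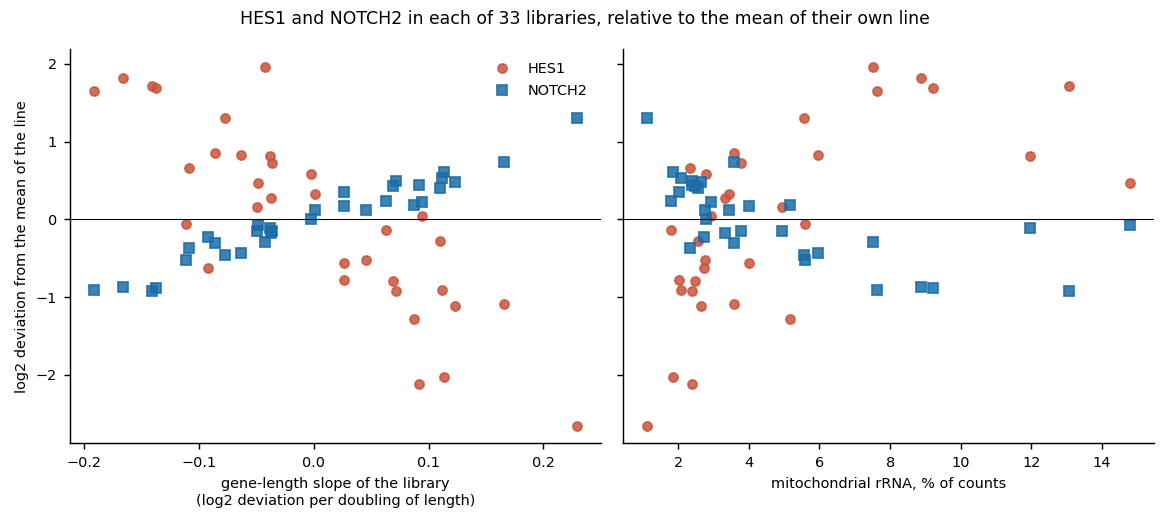
Log2 deviation of HES1 (circles) and NOTCH2 (squares) from the mean of their own line in each of 33 libraries (vertical axis), against the library's gene-length slope (left, log2 per doubling of length) and against the percentage of counts on mitochondrial rRNA (right). NOTCH2 rises and HES1 falls along the length slope, with r of 0.97 and -0.84.

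The rest of the pathway was read from a list of 47 genes. Over the 7 pairs, 94 of 300 values with an adjusted p were called, 51 higher and 43 lower, a share of 31.3% beside 29.8% for all genes over the same pairs. The 7 genes listed as further targets, which are HES and HEY family genes and NRARP, had 20 of 37 called, 13 higher and 7 lower. Whether Notch drives each of them in these lines was not tested. In OVCAR3 ResA, 3 of 7 were called (HES2 and HES5 higher, HES4 lower) beside 44.9% of all genes. There, the HES4 call was lost when any 1 replicate was left out (DESeq2 adjusted p from 0.0967 to 0.216). The HES2 call was lost without replicate 1 (0.380) or 3 (0.350). OVCAR4 ResA had 1 of 5 called (HES6 lower) beside 11.9%, and OVCAR3 ResB none of 5 beside 7.67%. That HES6 call was lost without replicate 2 (DESeq2 adjusted p = 0.324) or 3 (0.470). In OVCAR4 ResB, all 5 that had an adjusted p were lower (HES2, HES4, HES6, HEYL and NRARP), where 17.9% of all genes were called. The median absolute log2 fold change of these 5 was 2.03 beside 0.56 for all genes. In PEO4, 4 of 5 were higher (HES2, HES4, HEYL and NRARP) beside 33.3% of all genes called. PEO6 had 3 of 5 higher (HES4, HEYL and NRARP) beside 41.4%. PEA2 had 4 of 5 higher (HES2, HES4, HES6 and NRARP), where 47.0% of all genes were called. Each of the PEA2 calls was lost in some fit with 1 replicate left out, HES2 in all 3 (adjusted p from 0.0843 to 0.125), HES4 and NRARP without replicate 1 (0.0636 and 0.0768) and HES6 without replicate 3 (0.107). In OVCAR4 ResB, NRARP alone kept its call in each such fit, with HES2 lost without replicate 2 (adjusted p = 0.199) and HES6 without replicate 2 (0.0791) or 3 (0.0760). The HES2 call in PEO4 was lost without replicate 1 (0.2001) or 3 (0.0867) and had no adjusted p without replicate 2. HEYL and HES6 are named outside the rule for the list, after their values were seen.

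NRARP, a small protein that Notch induces and that limits its signal, was at 12.8, 8.52 and 12.7 TPM in OVCAR4, 19.8, 22.5 and 22.4 TPM in OVCAR4 ResA and 2.47, 3.66 and 3.39 TPM in OVCAR4 ResB. ResB was below both relatives in all libraries, at -2.40 against OVCAR4 (SE 0.35, DESeq2 adjusted p = 7.89e-10) and -2.81 against ResA (SE 0.17, DESeq2 adjusted p = 7.13e-61). PEO1 held 0.625, 0.650 and 0.425 TPM, PEO4 3.86, 3.35 and 3.73 TPM and PEO6 1.34, 1.61 and 1.76 TPM. NRARP was higher in PEO4 by 2.72 (SE 0.39, DESeq2 adjusted p = 3.87e-11) and in PEO6 by 1.46 (SE 0.53, DESeq2 adjusted p = 0.0162), the latter lost when any 1 replicate was left out (adjusted p from 0.159 to 0.236). HES4 was at 1.71, 1.87 and 1.62 TPM in PEO1, 6.93, 7.48 and 8.54 TPM in PEO4 and 6.72, 13.6 and 6.86 TPM in PEO6, with log2 fold changes of 2.20 (SE 0.41, DESeq2 adjusted p = 6.43e-07) and 2.35 (SE 0.43, DESeq2 adjusted p = 5.77e-07). HEYL, whose promoter letters are printed above with those of HES4, rose from a mean of 0.0773 TPM in PEO1 to 1.25 TPM in PEO4 and 1.28 TPM in PEO6, at 4.15 (SE 0.61, DESeq2 adjusted p = 1.24e-10) and 4.18 (SE 0.66, DESeq2 adjusted p = 2.57e-09). In OVCAR4 ResB the HES4 value of -1.51 (SE 0.49, DESeq2 adjusted p = 0.0162) was lost without replicate 2 (adjusted p = 0.491) or replicate 3 (adjusted p = 0.498), and the HEYL value of -3.67 (SE 1.15, DESeq2 adjusted p = 0.0117) without any 1 replicate (adjusted p from 0.0805 to 0.252).

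Among the genes that act before the nucleus, LFNG, a glycosyltransferase that alters which ligands a receptor answers, was called lower in 4 pairs. It was at 18.7, 25.1 and 23.9 TPM in OVCAR3, 0.680, 1.97 and 1.07 TPM in OVCAR3 ResA and 4.18, 10.9 and 9.22 TPM in OVCAR3 ResB. The lines were apart, with log2 fold changes of -4.44 in ResA (SE 0.23, DESeq2 adjusted p = 4.03e-83) and -1.67 in ResB (SE 0.37, DESeq2 adjusted p = 0.000267), the second lost without replicate 1 (adjusted p = 0.0934). PEA2 gave -1.13 (SE 0.24, DESeq2 adjusted p = 1.92e-05) and PEO6 -1.78 (SE 0.35, DESeq2 adjusted p = 3.84e-06). APH1B, a subunit of the gamma-secretase that cuts the receptor, was also lower in 4 pairs, from -2.28 in OVCAR3 ResA (SE 0.28, DESeq2 adjusted p = 4.76e-15) to -0.56 in PEO4 (SE 0.21, DESeq2 adjusted p = 0.0265), the PEO4 call lost without any 1 replicate (adjusted p from 0.0821 to 0.230). FURIN, the protease that first cleaves the receptor precursor, was higher in OVCAR3 ResA by 2.08 (SE 0.13, DESeq2 adjusted p = 4.88e-56) and in OVCAR4 ResA by 0.9956 (SE 0.32, DESeq2 adjusted p = 0.0219), and lower in PEO6, at -0.88 (SE 0.28, DESeq2 adjusted p = 0.00536). The OVCAR4 ResA call was lost without replicate 2 or 3 (adjusted p = 0.388 and 0.888) and the PEO6 call without replicate 1 or 2 (0.191 and 0.0531). DNER, a ligand-like membrane protein, fell from 14.6, 15.9 and 15.5 TPM in OVCAR4 to at most 0.140 TPM in both resistant lines, at -7.48 in ResA (SE 0.50, DESeq2 adjusted p = 1.28e-46) and -8.04 in ResB (SE 0.59, DESeq2 adjusted p = 3.3e-39). It was also lower in PEO6, at -5.58 (SE 0.94, DESeq2 adjusted p = 3.28e-08), and higher in PEA2, at 2.30 (SE 1.01, DESeq2 adjusted p = 0.0484), the PEA2 call lost without any 1 replicate (adjusted p from 0.128 to 0.488).

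Of the adaptors and ligases, NUMBL, a relative of the Notch inhibitor NUMB, was called in 5 pairs, lower in 4 and higher in 1. The largest fall was -1.36 in PEO4 (SE 0.20, DESeq2 adjusted p = 1.64e-10), and the rise in OVCAR3 ResA, 0.50 (SE 0.15, DESeq2 adjusted p = 0.00348), was lost when any 1 replicate was left out (adjusted p from 0.0570 to 0.123) and without the block (adjusted p = 0.226). The NUMBL fall in OVCAR4 ResA, -0.96 (SE 0.34, DESeq2 adjusted p = 0.0409), was lost without replicate 2 (adjusted p = 0.691) or 3 (0.867). It was also lost by edgeR (adjusted p = 0.139). NEURL1, a ligase of Notch ligands, rose in PEA2 to a mean of 8.66 TPM from 2 counts over the PEA1 libraries (DESeq2 adjusted p = 1.2e-19), while DTX3, a Deltex relative of DTX4, fell there by 2.63 on the log2 scale (SE 0.32, DESeq2 adjusted p = 2.6e-15). NEURL1B, a paralogue of NEURL1, was lower in PEO4, at -1.20 (SE 0.23, DESeq2 adjusted p = 1.71e-06), and higher in PEO6, at 2.08 (SE 0.28, DESeq2 adjusted p = 8.35e-13). It was also higher in OVCAR3 ResA, at 0.96 (SE 0.19, DESeq2 adjusted p = 2.98e-06), and in PEA2, at 1.33 (SE 0.28, DESeq2 adjusted p = 1.53e-05). In the nuclear complex, the coactivator MAML2 was lower in PEO4, at -2.001 (SE 0.19, DESeq2 adjusted p = 3.34e-23), and higher in PEA2, at 1.11 (SE 0.25, DESeq2 adjusted p = 3.65e-05). Its rise in OVCAR3 ResA, 0.58 (SE 0.16, DESeq2 adjusted p = 0.00133), was lost without replicate 1 (adjusted p = 0.0560) or 2 (0.0949). The calls of MAML2 and of the acetyltransferase KAT2B in OVCAR4 ResA, at 0.998 (SE 0.35, DESeq2 adjusted p = 0.0415) and 1.53 (SE 0.47, DESeq2 adjusted p = 0.0137), were lost without replicate 2 or replicate 3. KAT2B was also higher in OVCAR3 ResA, at 0.79 (SE 0.16, DESeq2 adjusted p = 7.19e-06), and lower in PEO4, at -1.04 (SE 0.24, DESeq2 adjusted p = 0.000109). Its rise in OVCAR4 ResB, 1.53 (SE 0.48, DESeq2 adjusted p = 0.0126), was lost without replicate 2 (adjusted p = 0.498) or 3 (0.368).

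**Figure D5:**
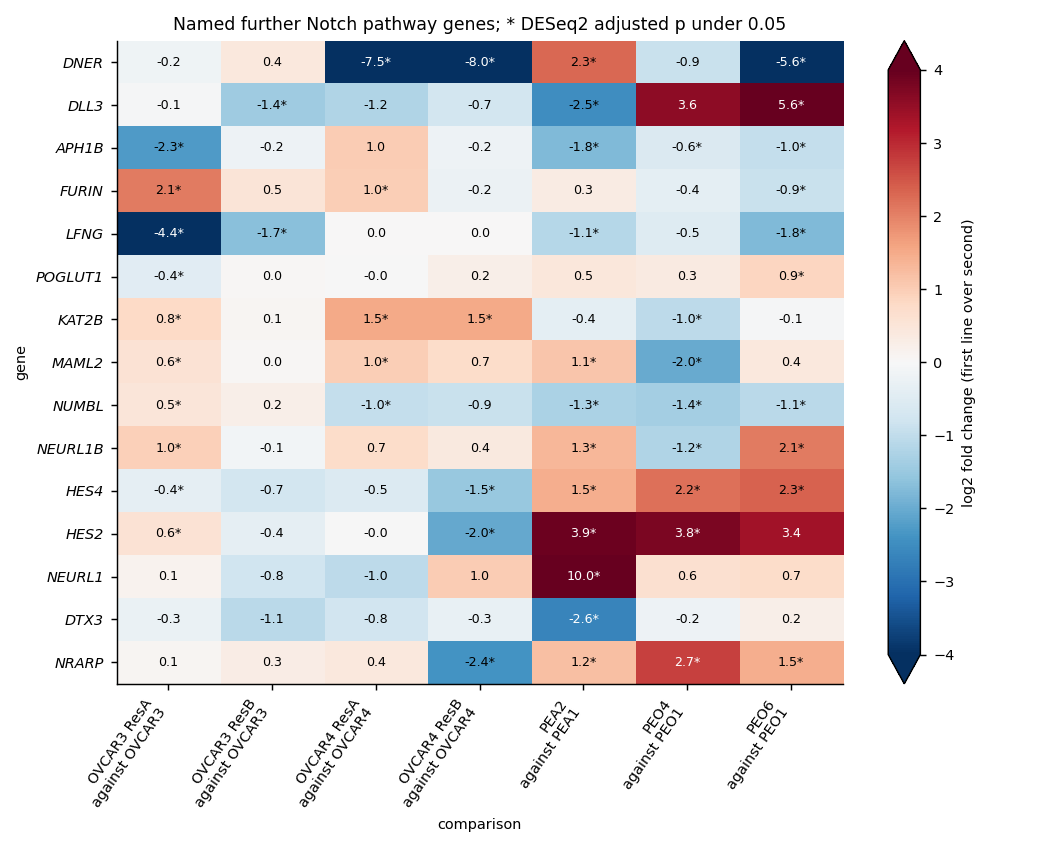
Heat map of fitted log2 fold changes for further Notch pathway genes named by a rule (rows) in the 7 sensitive-resistant pairs (columns), with asterisks for DESeq2 adjusted p under 0.05 and colours that stop at 4. NRARP and HES4 are blue in OVCAR4 ResB and red in PEA2, PEO4 and PEO6, and LFNG and APH1B are each called lower in 4 pairs.

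Over the 11 line means of log2(TPM + 1), the members most alike were NOTCH3 and HES1 (r = 0.85), DLL1 and HES1 (r = 0.82) and NOTCH1 and HES1 (r = 0.78). Among the 13185 genes that reached 5 TPM in some line, the gene most like HEY2 was ACAA1 (r = 0.92), like DTX4 RUNX1 (r = 0.94), like NOTCH3 ELOVL6 (r = 0.91), like JAG1 NDUFB5 (r = 0.93), like HEY1 ANKH (r = 0.92) and like NOTCH1 S100A11 (r = 0.94). Lines of one family share their origin, so these values describe 11 points that are not independent.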

How the data were processed

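RNA of 33 libraries (11 lines, 3 each) was prepared with an mRNA kit and sequenced as 1 pool over several runs. The authors processed the reads with nf-core/rnaseq against GRCh38 and deposited salmon estimated counts and TPM merged per gene. The use of strand in counting is not given in the sources used here, so overlapping and antisense genes are uncertain. All sample columns were matched to a labelled library by name.

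The deposited estimated counts were rounded and fitted with DESeq2 1.42.0 (R 4.3.3) for each pair of lines, 6 libraries at a time, with line and replicate number as terms, after the study's methods. Size factors were medians of ratios, and no count filter was set before the fit. DESeq2's own default filter on low mean counts stayed on. The p-values were adjusted by Benjamini-Hochberg over the genes that passed it. Between 14993 and 18160 of the 29744 genes had an adjusted p in a sensitive-resistant pair. Family differences came from 1 fit of 33 libraries, and the line-level test from counts summed per line with family as a term. The deposited TPM values served for levels and for limma 3.58.1 on log2(TPM + 1) or log2(TPM + 0.1), also with a filter of 1 TPM. Other alternatives were edgeR 4.0.16 quasi-likelihood, TMM factors, a filter of 10 counts in 3 libraries, no block, all 33 libraries in one fit and each replicate left out. An offset for the trend over 20 bins of gene length was added after seeing the data. The fit was tested on simulated data without a length trend, where any shift of a replicate number was shared by both lines. Such data cannot show how the block behaves where same-numbered libraries did not move together.

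Members and lists were chosen with earlier results of these data known. Named genes were the 10 members and, of the further list of 47, the 2 per role called in most pairs and any other called with an absolute log2 fold change of at least 2 and a mean of at least 5 TPM in either line. For each member, the genes with the highest r over line means were also looked up. A result of 1 further gene and that of 1 gene most like a member are not reported here. Replicate numbers moved together, with all 3 correlations of deviations above 0.1, in 2 of the 10 comparisons of lines (OVCAR3 ResA against OVCAR3 and OVCAR4 ResB against OVCAR4 ResA), and nothing in the labels says what a number shares. Depth was 18058985 to 43394009 estimated counts, and counting intervals are at 95%.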

Additional observations from a re-analysis of the deposited data

Results flagged for a closer look

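Effects of resistance that differed between families by the DESeq2 test of the difference itself (log2 scale, adjusted p under 0.05) are listed for the 8 members tested. OVCAR3 minus OVCAR4 gave 0.87 for NOTCH3, -0.86 for JAG1, 3.27 for JAG2, -2.73 for DLL1 and -2.90 for HEY1. For OVCAR3 minus PEA, the values were -1.12 for JAG1, 2.39 for JAG2 and -2.22 for HEY1. Values for OVCAR3 minus PEO were 1.63 for JAG2 and -3.23 for HEY1. OVCAR4 minus PEA differed by -1.47 for NOTCH3, -0.88 for JAG2 and 4.10 for DLL1. OVCAR4 minus PEO differed by -1.41 for NOTCH3, 1.47 for JAG1, -1.63 for JAG2 and 3.07 for DLL1. PEA minus PEO differed by 1.72 for JAG1 and -0.75 for JAG2. For JAG1, the means of the PEO and OVCAR4 families join resistant lines of opposite direction. In the fits of single pairs, PEO4 gave -3.34 and PEO6 0.51 (not called), and OVCAR4 ResA gave 1.09 (not called) and ResB -0.9997.

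Of the OVCAR3 minus OVCAR4 differences, NOTCH3 was lost without replicate 1 (adjusted p = 0.133) or 2 (0.106), JAG1 without replicate 2 (0.600) or 3 (0.0662) and without the block (0.0680), and DLL1 without replicate 1 (0.0643) or 2 (0.2004). The JAG1 difference from PEA was lost without replicate 2 (adjusted p = 0.148). The DLL1 differences of OVCAR4 were lost without replicate 1 from PEA (adjusted p = 0.0746) and without any 1 replicate from PEO (adjusted p from 0.0581 to 0.360). DLL1 had fewer than 10 counts in each PEA and PEO library.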

How the results depend on the processing

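For single genes, 1117 values under an alternative stayed on the same side of the threshold, 113 no longer passed and 28 newly passed. A further 2 newly passed in the direction opposite to the main fit, both for HES1 (OVCAR4 ResA from -1.20 without replicate 1 to 1.10 without replicate 3, and OVCAR3 ResB against ResA from -1.95 without replicate 1 to 1.40 without replicate 3). The cause was not tested. Changes of sign among values that did not pass were not counted. Members called with all 33 libraries in one fit were 3 in OVCAR3 ResA, 2 in OVCAR4 ResA and 2 in PEA2. By edgeR they were 0 in OVCAR4 ResA and 2 in OVCAR4 ResB. By limma, at either pseudocount and with the TPM filter, they were 0 in OVCAR3 ResB, 0 in OVCAR4 ResA, 0 in OVCAR4 ResB and 3 in PEO4, and at pseudocounts 1 and 0.1 they were 1 in PEO6. Between resistant lines, limma gave 1, 0 and, filtered, 1 in OVCAR3 and 2, 1 and, filtered, 3 in PEO (pseudocounts 0.1 and 1, then the filter). The limma fits called 56, 46 and 58 of the wider list against 94. Without the replicate block, 2 were called in OVCAR4 ResA and 2 in PEA2, and 19 of the 22 pair calls and 13 of the 14 between resistant lines remained. With the length offset, 3 were called in PEA2 and 4 in PEO6. With normalised counts in place of TPM, the highest line was the same for 8 of 10 members.

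Leaving out 1 replicate, members called ranged from 5 to 6 in OVCAR3 ResA, 0 to 3 in OVCAR3 ResB, 0 to 3 in OVCAR4 ResA, 2 to 7 in OVCAR4 ResB, 0 to 2 in PEA2, 3 to 5 in PEO4 and 2 to 3 in PEO6. For ResB against ResA they were 1 to 4 among OVCAR3 lines and 5 to 6 among OVCAR4 lines, for PEO6 against PEO4 2 to 5, and on the wider list 52 to 89. Family differences gave 2 to 4, 2 to 3, 1 to 2, 2 to 3, 3 and 1 to 2, in the order of the report, and the line level 0. Counts limit DLL1, HEY1 and, outside the lines that carry it, HEY2.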
